A study of Danio rerio with 1324 samples.

Results

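The respiratory chain of the inner mitochondrial membrane passes electrons from NADH (complex I) or succinate (complex II) through complexes III and IV to oxygen, and ATP synthase (complex V) uses the proton gradient that results to make ATP. In beta-cells this chain couples glucose oxidation to insulin release, because the ATP formed closes potassium channels of the cell membrane and so opens the way to calcium entry. Most subunits are encoded in the nucleus and built into the complexes with the help of assembly factors. The genes described here are those whose symbol begins with nduf, sdha, sdhb, sdhc, sdhd, uqcr, cox4, cox5, cox6, cox7, cox8 or atp5 and that had a read in at least 1 training cell. This name rule gave 0.453% of the 22948 genes with such a read, out of 31916 genes in each table. They were 38 genes of complex I, 5 of complex II, 8 of complex III, 18 of complex IV, 18 of complex V, 4 of the NDUFA4 family (named after complex I but now counted with complex IV), 2 inhibitors of ATP synthase and 11 assembly factors. No gene of the mitochondrial genome was found by symbol, so the mt-nd, mt-co, mt-atp and mt-cyb genes were not analysed here.

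Single beta-cells were isolated from zebrafish of different ages by their red fluorescence, and full-length mRNA libraries were sequenced cell by cell. Every group carried the transgene Tg(ins:BB1.0L), in which the promoter of the insulin gene ins drives the reporter, and apart from the diet cohorts every group was fed normally. After the quality filter of the authors 1014 of 1324 labelled cells were present in 15 groups, here called pools because the cells of a group came from a few fish. Older pools were the adult ages 10, 12 and 14 mpf (months post-fertilization), the adolescent ages 3, 4 and 6 mpf, and 3 independent cohorts at 4 (new batch), 9 and 13 mpf (new plate). Juvenile pools were 1 mpf and a separate 1 mpf cohort, collected in other wells of the same plate as the 13 mpf cohort. The cohorts of that single plate are called the 1 mpf plate and the 13 mpf plate below. Cells at 45 days post-fertilization (dpf) and 3 mpf cells from a C1 microfluidic chip formed further pools that were given but not tested. In the diet cohorts, sibling fish of a single clutch were fed Artemia 3 times a day (3TD) or only on alternate days (intermittent feeding, IF) for a month and examined at 4 mpf. The amount eaten was not controlled, and each diet was a single pool of cells from 6 fish. The p-values below measure the spread between pools. Cells of a pool share their fish and sort, except that the 3 and 6 mpf pools each join batches collected on different days. Levels below are TPM (transcript levels per length and library total) rescaled after leaving out ins, averaged over the cells of a pool.

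Median depth per pool was 274026 to 1162070 reads per cell, and ins took a median of 54.6 to 77.8% of TPM. The juvenile cells were richer in detected genes: at 20000 reads drawn outside ins per cell, the later pools held a median of 1913 to 2670 genes, against 3354 genes on the 1 mpf plate and 3288 at 1 mpf. Summed alpha-cell markers spanned 1515 to 29374 TPM in the later pools, against 27376 and 16732 TPM in these juvenile pools, and summed delta-cell markers 89.5 to 71320 TPM, against 19885 and 10163 TPM. Acinar markers reached 722 TPM in the later pools, against 64.7 TPM in the juvenile pools, and blood markers 7.15 TPM, against 1.19 TPM, with 2 of the 4 blood genes at 0 in all 11 pools tested. The part of other cell types in the results below was not tested. The C1 pool held 13 of 73 labelled cells and stood apart in the chain itself, as given below.

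With ins left out, the totals of the respiratory chain as a whole overlapped between later and juvenile pools. All members together made up 2.65 to 3.74% of TPM without ins in the 11 pools, with a median total of 31012 TPM over the 9 later pools (26493 at 6 mpf to 37412 on the 13 mpf plate), against 31505 TPM on the 1 mpf plate and 33322 TPM at 1 mpf. Both juvenile totals lay inside the range of the later pools on this scale, while with ins kept in TPM the log2 ratio of later over juvenile totals was -0.81. Complex V was the most abundant, with 9032, 10436 and 14168 TPM (lowest, median and highest later pool), against 10210 and 11033 TPM in the juvenile pools, the 1 mpf plate being given before the 1 mpf pool.

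Complex I, which oxidizes NADH, summed to 6167, 7169 and 8801 TPM in the later pools, against 7446 and 7912 TPM in the juvenile pools. Complex IV, the oxidase that reduces oxygen to water, had 5804, 6814 and 8193 TPM, against 7850 and 8195 TPM. Complex III, which hands electrons from coenzyme Q to cytochrome c, had 1422, 1685 and 2921 TPM, against 2030 and 2078 TPM. In each of these complexes at least 1 juvenile pool lay within the later range, and the median later total was 0.934, 0.849 and 0.821 times the juvenile mean for complexes I, IV and III without ins. With ins kept in TPM the log2 ratio of later over juvenile totals was -0.74 in complex I, -0.88 in IV and -1.04 in III. Complex II, which also belongs to the citric acid cycle, had 578, 848 and 917 TPM, against 940 and 894 TPM, and its lowest pool was the new 4 mpf batch.

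Of the small groups around the complexes, the assembly factors within the name rule and the inhibitors had totals that did not overlap between stages. The NDUFA4 family overlapped. The 11 assembly factors summed to 352, 460 and 634 TPM in the later pools, against 310 and 325 TPM in the juvenile pools. In the pools left out of this comparison they summed to 303 TPM at 45 dpf and 294 TPM in IF cells, below both juvenile pools, and to 507 TPM in 3TD and 548 TPM in C1 cells. The 2 inhibitors of ATP synthase, which block ATP hydrolysis when respiration fails, summed to 561, 666 and 716 TPM, against 765 and 749 TPM. In the pools left out they had 471 TPM at 45 dpf, 588 TPM in 3TD, 471 TPM in IF and 1367 TPM in C1 cells. Every later pool was above both juvenile pools for these 11 assembly factors and below both for the inhibitors. No gene of either group passed the test described next. With ins kept in TPM the log2 ratio of later over juvenile totals was -0.24 for these assembly factors in place of 0.53. The 39 assembly factors outside the name rule overlapped, with totals of 2110 to 3666 TPM in the later pools, against 2935 and 3004 TPM. Of these, 13 were higher in the later pools, with a median difference of -0.21. The NDUFA4 family had the widest range, 1262 TPM on the 13 mpf plate to 3532 TPM at 3 mpf (median 2279 TPM), against 1954 and 2135 TPM in the juvenile pools.

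**Figure D1:**
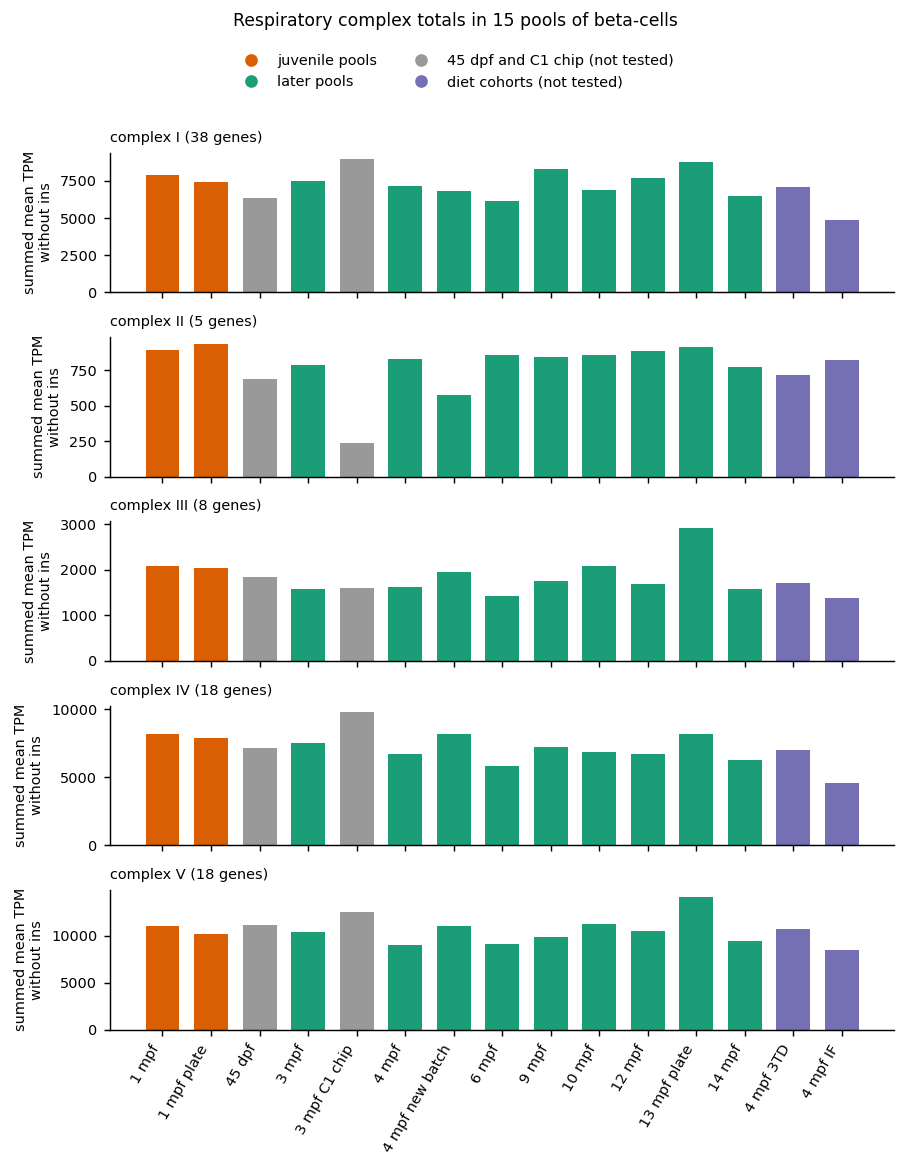
Summed mean TPM without ins (vertical axis) of the subunits of complexes I to V in each of 15 pools, in order of age and then by diet. Each bar is a single pool, so no error bar is drawn. Complex V reached 14168 TPM on the 13 mpf plate, the new 4 mpf batch (578 TPM) and the C1 pool (240 TPM) were lowest in complex II, and every complex but complex II was higher in 3TD than in IF cells on this scale (with ins kept, complexes III and V were lower in 3TD).

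To ask which members differed between later and juvenile beta-cells, the 9 later pools were compared with both juvenile pools for each gene on the log2(mean TPM without ins + 1) scale with limma. Of the members, of which all but 1 were tested, 3 were higher and 0 lower at an adjusted p under 0.05, where 0.248% of the 14102 genes tested were called higher and 0.638% lower. At an unadjusted p under 0.05 limma found 13 members, and 1664 genes in all. With ins kept in TPM, limma called the same 3 members higher, where 0.305% of 11149 genes were, and 23 lower, where 10.9% were, and the median of all genes was -0.65 in place of -0.12. Without ins, the median difference was -0.11 for the members and -0.12 for all genes, and 44 members (42.7% of those tested) were higher in the later pools. The 3 called genes were SDHD, COX6A1 and cox8b, each the scarcer gene of a pair in the juvenile pools. COX6A1 met the filter of a mean of at least 1 TPM only through the later pools where it is high. Its call is therefore given as a value and not as support. For the other members the differences ran between -3.20 and 2.44, and their medians by group were -0.06 in complex I, -0.24 in complex III and -0.04 in complex V.

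**Figure D2:**
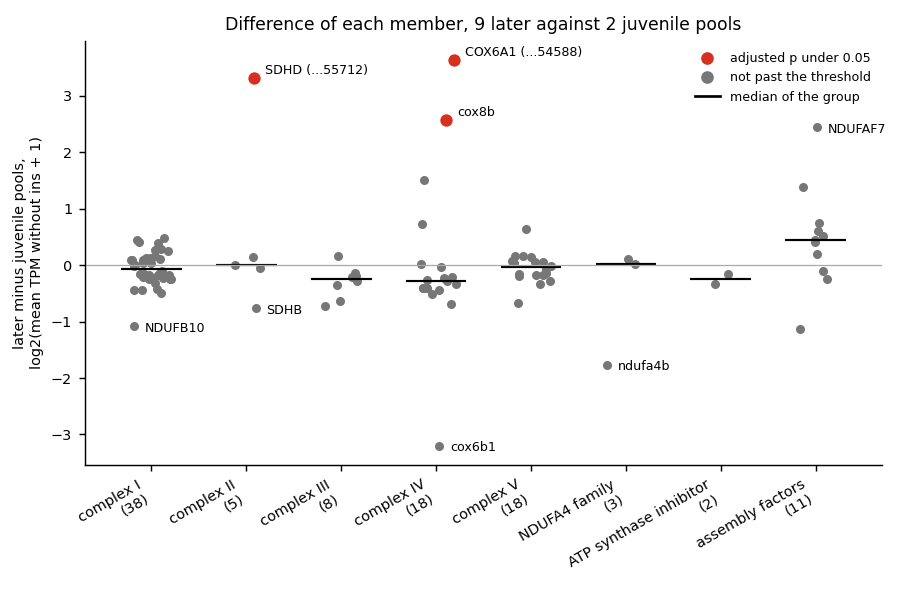
Difference of each tested member between 9 later and 2 juvenile pools, on the log2(mean TPM without ins + 1) scale (vertical axis), by group with the number of genes tested. Red points passed an adjusted p of 0.05 (limma), and black lines mark the median of a group, with 0.45 for the assembly factors and -0.27 for complex IV. SDHD (3.31), COX6A1 (3.63) and cox8b (2.58) lay apart from their complexes. COX6A1 met the filter of the test only through the later pools.

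The subunit cox8b belongs to COX8, a small membrane subunit of complex IV whose other zebrafish form here is cox8a. Its level was 96.4 TPM at 3 mpf, 225 TPM at 4 mpf, 86.4 TPM in the new 4 mpf batch, 85.9 TPM at 6 mpf, 152.5 TPM at 9 mpf, 262 TPM at 10 mpf, 154.5 TPM at 12 mpf, 295 TPM on the 13 mpf plate and 246 TPM at 14 mpf, against 25.5 TPM on the 1 mpf plate and 26.7 TPM at 1 mpf. All later pools were above both juvenile pools, and the 45 dpf pool, with 47.97 TPM, lay between them. The difference was 2.58 ± 0.46 (SE) with an adjusted p of 0.0141 (limma). Within the pools collected on the same date by the study's sample table it was 2.49 between 12 and 1 mpf, and within the pair sorted on a single plate 3.48 between 13 and 1 mpf.

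The partner cox8a had 396, 471 and 555 TPM in the later pools, against 620 and 647 TPM in the juvenile pools, without overlap but short of the threshold (-0.45, adjusted p = 0.383 in limma). The pair together had 529, 621 and 850 TPM in the later pools, against 646 and 674 TPM, so its total overlapped between stages. The share of cox8b in that total was 14.9, 27.3 and 36.3% in the later pools, against 4.0% in each juvenile pool. Drawn to 20000 reads outside ins, 20.2, 41.4 and 59.8% of later cells had a cox8b read (lowest, median and highest pool), against 20% of cells on the 1 mpf plate (95% exact binomial interval 7.71 to 38.6%) and 12.6% at 1 mpf (6.48 to 21.5%). At this depth cox8a was read in 82.6 to 91.1% of cells of the later pools, against 96.7 and 91.9% of juvenile cells.

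SDHD is the small membrane anchor of succinate dehydrogenase, and the tables hold 2 genes with this symbol. The called gene (ENSDARG00000055712) had 39.8 TPM at 3 mpf, 54.2 TPM at 4 mpf, 27.01 TPM in the new 4 mpf batch, 88.8 TPM at 6 mpf, 23.2 TPM at 9 mpf, 77.2 TPM at 10 mpf, 82.98 TPM at 12 mpf, 29.6 TPM on the 13 mpf plate and 64.7 TPM at 14 mpf, against 2.92 TPM on the 1 mpf plate and 5.33 TPM at 1 mpf. The groups did not overlap, and the 45 dpf pool with 7.63 TPM was close to the juvenile ones. The difference was 3.31 ± 0.52 (SE) with an adjusted p of 0.00638 (limma). It was 3.73 between 12 and 1 mpf and 2.96 between 13 and 1 mpf on the single plate. This gene was read in few cells: 9.3 to 27.8% of cells of the later pools held a read, against 20 reads in 2 of 30 cells of the 1 mpf plate and reads in 5 of 87 cells at 1 mpf.

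The other SDHD gene (ENSDARG00000030139) had 57.9, 98.96 and 123.01 TPM in the later pools, against 82.8 and 80.8 TPM in the juvenile pools, so the stages overlapped. It was read in 28.3 to 47.7% of cells of the later pools, against 80% of cells of the 1 mpf plate and 71.3% of 1 mpf cells. The share of the called gene in the pair was 15.8, 33.6 and 60.5% in the later pools, against 3.4 and 6.2% in the juvenile pools. At 6 mpf the called gene was the more abundant of the pair. Summed over both genes SDHD had 100.04, 146.2 and 177.2 TPM in the later pools, against 85.7 and 86.1 TPM.

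COX6A1 encodes the COX6A subunit of complex IV, again with 2 genes of that symbol. The called gene (ENSDARG00000054588) had 14.1 TPM at 3 mpf, 34.4 TPM at 4 mpf, 7.39 TPM in the new 4 mpf batch, 18.9 TPM at 6 mpf, 20.8 TPM at 9 mpf, 10.5 TPM at 10 mpf, 25.8 TPM at 12 mpf, 7.33 TPM on the 13 mpf plate and 19.7 TPM at 14 mpf, against 0 TPM on the 1 mpf plate and 0.821 TPM at 1 mpf. The juvenile values rest on 0 reads in 30 cells, which allows a share of up to 10.0% of cells, and on 16 reads in 1 of 87 cells, while 45 dpf cells had 2.35 TPM. The difference was 3.63 ± 0.58 (SE) with an adjusted p of 0.00638 (limma). Both juvenile values lay below 1 TPM, so the gene met the filter of a mean of at least 1 TPM only through the later pools where it is high. Its share of both COX6A1 genes was 2.9, 19.5 and 23.3% in the later pools, against 0 and 0.6% in the juvenile pools, and the other gene (ENSDARG00000022438) was the main form in every pool.

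**Figure D3:**
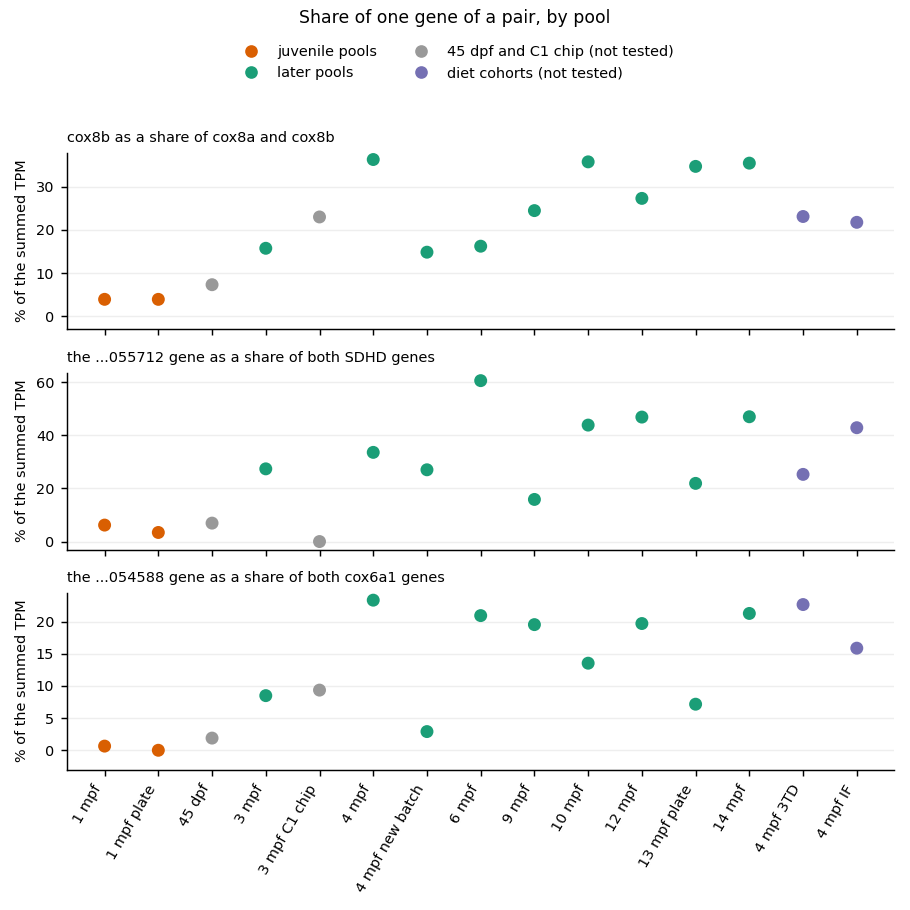
Share of the called gene of a pair in the summed TPM of the pair (percent, vertical axis) in each of 15 pools, 1 point a pool: cox8b of COX8, ENSDARG00000055712 of SDHD and ENSDARG00000054588 of COX6A1. All 9 later pools lie above both juvenile pools in each pair, for example at 14.9 to 36.3% against 4.0% for cox8b, and 45 dpf lies at 7.3, 6.9 and 1.9%.

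These 3 calls rested on both juvenile pools and on a fit without batch. The call of COX6A1 is followed here as a value only. With the 1 mpf pool left out the adjusted p in limma was 0.104 for SDHD, 0.104 for COX6A1 and 0.294 for cox8b, at differences of 3.66, 4.07 and 2.61. With the 1 mpf plate left out it was 0.236, 0.259 and 0.344, at differences of 2.97, 3.20 and 2.55. The juvenile side is then 1 pool, assumed to vary like the later ones. With the shared date and the shared plate as a block in limma, an alternative added after seeing the data, the differences were 3.35 for SDHD, 3.47 for COX6A1 and 2.98 for cox8b. The adjusted p in limma was 0.0625, 0.0773 and 0.0754, and no member passed, against 1 gene higher and 14 lower in all. The other pools, of several batches, formed a single block without a juvenile pool. It held the whole 3 mpf pool, although a part of that pool shared the date of 1 and 12 mpf by the study's sample table. These differences therefore rest on the date pair and the plate pair alone. The richer detection of genes in juvenile cells moves with the same contrast. After drawing equal reads per cell, SDHD was read in 8.1, 18.2 and 22.5% of later cells (lowest, median and highest pool), against 0 and 2.3% of juvenile cells, and COX6A1 in 3.3, 8.3 and 13.6%, against 0 and 1.1%. On the 1 mpf plate, 0 of 30 cells leaves an exact binomial interval of 0 to 11.6% for each gene. That interval covers the lowest later pool, though not the later median, for SDHD, and both of these for COX6A1. At 1 mpf the intervals end at 8.06% for SDHD and 6.24% for COX6A1. For COX6A1 the lowest later pool lies inside it. Equal reads therefore do not separate the stages cleanly for these genes.

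Counted without a test, 6 members were higher in every later pool than in both juvenile pools, where 3.06% of all genes were. In turn 7 members were lower in every later pool, where 7.29% of all genes were. Of the 6 higher members, COX6A1 met the filter of the test only through the later pools and adds no support. Beside the 3 called genes the higher ones were NDUFB1 and NDUFA1, small accessory subunits of complex I, and atp5meb, a form of the membrane subunit e of ATP synthase, all 3 below 0 with ins kept in TPM (-0.13, -0.27 and -0.0074). NDUFB1 had 333, 378 and 449 TPM in the later pools, against 318 and 239 TPM in the juvenile pools (0.48, adjusted p = 0.378 in limma). NDUFA1 had 186, 218 and 250 TPM, against 161.9 and 166.5 TPM. Of these 3 atp5meb had the largest difference, with 546, 780 and 975 TPM, against 474 and 477 TPM (0.64, adjusted p = 0.241 in limma).

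Among the lower members NDUFB10, an accessory subunit of the membrane arm of complex I, came closest to the threshold. Its level was 238, 321 and 425 TPM in the later pools, against 627 and 790 TPM in the juvenile pools, a difference of -1.08 ± 0.24 (SE, adjusted p = 0.0504 in limma). SDHB, the iron-sulfur subunit of complex II, had 178.3, 254 and 277 TPM, against 423 and 382 TPM (-0.77 ± 0.23, adjusted p = 0.159 in limma). Neither of these passed, nor did UQCRB and uqcrc2a of complex III. The core subunit uqcrc2a was scarce, with 16.7, 23.2 and 27.4 TPM, against 36.6 and 33.99 TPM.

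The complex IV subunit cox6b1 showed the lowest value of all members in this contrast. Its level was 0, 6.84 and 27.1 TPM in the later pools, against 71.7 and 68.1 TPM in the juvenile pools (-3.20 ± 0.96, adjusted p = 0.158 in limma). Reads were found in 0 to 9.2% of cells of the later pools, where a count of 0 at 9 mpf (86 cells) allows up to 3.49%, against 10 of 30 cells of the 1 mpf plate and 34 of 87 cells at 1 mpf. Its partner cox6b2 made up 94.5 to 100% of COX6B in the later pools, against 85.89 and 85.99% in the juvenile pools.

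Levels at 45 dpf, the age between juvenile and 3 mpf fish, were outside the choice of these 13 genes. For the 6 higher members 45 dpf lay below every later pool, within the juvenile range for 1, between the stages for 3 and below both juvenile pools for 2. For the 7 lower members it lay within the later range for 5 (SDHB, NDUFB10 and cox6b1 among them, with 227, 252 and 3.20 TPM). In cox8a it lay between the stages at 605 TPM. The level of uqcrc2a, 45.3 TPM, was above both juvenile pools.

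Within the later ages no member went past the threshold. Adult pools (10, 12 and 14 mpf) were compared with adolescent pools (3, 4 and 6 mpf) on summed reads outside ins with edgeR's quasi-likelihood test. Of the members, all but 2 of which were tested, 0 were called higher and 0 lower, where 0% of 14199 genes were called higher and 0% lower, and DESeq2 called 0 members too. At an unadjusted p under 0.05 edgeR found 1 member and 514 genes in all, the member being the ATP synthase subunit atp5md (0.76 ± 0.33, SE). The median difference was 0.02 for members and -0.02 for all genes.

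A trend over the 7 training ages, as the change per doubling of age in edgeR, called 0 members rising and 0 falling, where 0% of 16306 genes rose and 0% fell. Here 3 members had an unadjusted p under 0.05, against 705 genes in all. They were cox8b (0.72 ± 0.23 per doubling), SDHD (ENSDARG00000055712, 0.83 ± 0.28) and cox6b1 (-0.71 ± 0.28), with adjusted p in edgeR of 0.959 for cox8b and 0.99 for SDHD. DESeq2 called SDHD, with an adjusted p of 0.0373. The share of all genes that DESeq2 called is not given here, so this is a value only. The 1 mpf pool is the only juvenile pool in this fit.

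The most abundant members of each complex overlapped between stages or differed little, beside those already given. In complex I these included ndufa11, a membrane-arm accessory subunit, with 250, 368 and 548 TPM in the later pools, against 436 and 396 TPM in the juvenile pools. In complex II the flavoprotein SDHA had 171.5, 217 and 257 TPM, against 222 and 211 TPM, and the membrane anchor SDHC 127.9, 205 and 332 TPM, against 208 and 215 TPM. In complex III the hinge protein UQCRH had 289, 411 and 774 TPM, against 476 and 465 TPM. The small subunits UQCR10 and UQCRQ had medians of 349 and 322 TPM in the later pools, against 346 and 390 TPM for UQCR10 and 355 and 417 TPM for UQCRQ.

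COX7C, a small membrane subunit of complex IV, was among the most abundant members, with 1303, 1559 and 1903 TPM in the later pools, against 1548 and 1558 TPM in the juvenile pools. The further membrane subunit cox6c had 750, 813 and 1032 TPM, against 900 and 1060 TPM, and the zinc-binding COX5B (ENSDARG00000015978) 620, 781 and 1076 TPM, against 1005 and 1118 TPM. In ATP synthase the catalytic beta subunit ATP5F1B had 930, 1150 and 1688 TPM, against 1294 and 1373 TPM. The c-ring subunit atp5mc1 had 767, 985 and 1708 TPM, against 978 and 1085 TPM, and the membrane subunit ATP5MG 851, 972 and 1108 TPM, against 956 and 995 TPM. In each of these 6 genes the stages overlapped.

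NDUFA4L2, a paralog of NDUFA4 known in mammals as a target of hypoxia signalling, was the most abundant gene of its family in most pools and varied widely between them. It had 2686 TPM at 3 mpf, 2484 TPM in the new 4 mpf batch, 807 TPM in the other 4 mpf pool and 592 TPM on the 13 mpf plate, against 1279 and 1429 TPM in the juvenile pools, with 2532 TPM at 45 dpf. The pools of a single age, 4 mpf, thus differed more than the stages did. NDUFA4 stayed at 556 to 845 TPM in the later pools, against 672 and 702 TPM, and ndufa4b was scarce, with at most 5.84 TPM in a later pool, against 3.04 and 3.58 TPM. None of 10 hypoxia genes tested passed in limma between later and juvenile pools. Of these 3 had an unadjusted p under 0.05, against 1664 of 14102 genes in all.

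Shares of the COX4I, COX7A and ATP synthase inhibitor isoforms overlapped between stages. COX4I1 made up 96.7 to 99.6% of the COX4I genes in the later pools, against 98.7 and 99.5% in the juvenile pools, and COX4I2 and cox4i1l, its scarce relatives, were read in at most 5.4 and 5.0% of cells of any later pool at 20000 reads. COX7A2 made up 60.1 to 71.7% of the genes named COX7A, against 69.2 and 69.9%. COX7A2L, counted with them by name, made up 26.5 to 38.9%, against 30.3 and 29.4%, and cox7a1 at most 1.8%, against 0.5 and 0.7%. The ATP synthase inhibitor atp5if1b, with 304, 371 and 495 TPM in the later pools, against 443 and 412 TPM, made up 51.9 to 69.1% of both inhibitor genes, against 57.8 and 55.02%, with atp5if1a as the rest. The C1 pool departed from this, with 973 TPM of atp5if1a and a share of atp5if1b of 28.8%.

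Assembly factors were scarce and variable. SDHAF4, which helps SDHA into complex II, had 115.5, 223 and 325 TPM in the later pools, against 134.4 and 121.4 TPM in the juvenile pools. NDUFAF5, a factor for complex I, had 33.1, 56.8 and 75.2 TPM, against 55.1 and 61.5 TPM, and SDHAF3, a factor for SDHB, 10.9, 32.2 and 65.2 TPM, against 21.3 and 23.1 TPM. The largest difference in the group was that of NDUFAF7, an arginine methyltransferase acting in complex I assembly, with 4.67, 15.1 and 27.9 TPM, against 0 and 6.04 TPM (2.44, adjusted p = 0.134 in limma).

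Both pairs of an adult and a juvenile pool taken side by side were compared without a test, since each side is a single pool. Past a difference of 0.58 on the log2 scale, 16 members (15.5%) were higher at 12 mpf than at 1 mpf, where 29.8% of genes were, and 15 (14.6%) were lower, where 27.5% were, while with ins kept 5 were higher and 70 lower, against 10.2 and 52.4% of genes. On the single plate 26 members (25.2%) were higher at 13 than at 1 mpf, where 23.3% of genes were, and 11 (10.7%) were lower, where 42.6% were, while with ins kept 8 were higher and 39 lower, against 9.03 and 59.9% of genes. The medians over members were -0.12 and 0.26, against 0.03 and -0.32 for all genes. Among genes of at least 100 TPM the medians were -0.13 and 0.23 for members, against -0.17 and 0.02 for all such genes. On the plate complex V was 1.39 times and complex III 1.44 times the juvenile total, while at 12 mpf they were 0.953 and 0.811 times it.

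The pairs also differed within complex V. The alpha subunit ATP5F1A had a difference of -1.11 between 12 and 1 mpf and of 0.58 between 13 and 1 mpf on the single plate. In the plate pair 17 of 18 subunits were higher, where 40.2% of all genes were. In the date pair 6 of 18 were, where 51.3% of all genes were. As a share of all reads outside ins, complex V took 1.00% on the 13 mpf plate (95% exact binomial interval 1.00 to 1.01%), against 0.668% on the 1 mpf plate (0.664 to 0.673%), intervals that cover counting error only.

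Pools of a single age set the scale for these differences. Between the 1 mpf plate and the 1 mpf pool 5 members (4.90%) differed by more than 0.58, where 27.4% of all genes did. Between both 4 mpf pools 31 members (30.7%) did, where 63.3% of all genes did, between the 2 batches of 3 mpf 35 (34.3%, against 67.1% of all genes), and between those of 6 mpf 31 (30.4%, against 62.3%). Past this size were also 31 members (30.1%, against 57.3% of all genes) between 12 and 1 mpf. Between 13 and 1 mpf on the single plate 37 were (35.9%, against 65.9%), and between the diets 51 of 99 (51.5%), where 66.1% of all genes were. The C1 chip differed from the other 3 mpf cells in 66 members (64.7%, against 85.7% of all genes), with complex II at 0.305 times and complex IV at 1.30 times their level.

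The question of the diet cohorts was how feeding frequency bears on the beta-cell transcriptome at 4 mpf. In 3TD cells the members summed to 30805 TPM, against 23223 TPM in IF cells, a ratio of 1.33, and each complex but complex II was higher. Complex IV had 6970 TPM in 3TD and 4585 TPM in IF cells (ratio 1.52), complex I 7071 and 4836 TPM (1.46), complex V 10659 and 8466 TPM (1.26) and complex III 1708 and 1388 TPM (1.23). Complex II had 719 TPM in 3TD and 826 TPM in IF cells (0.870). With TPM as deposited, ins included, the log2 ratio of 3TD over IF was 0.08 for complex I and 0.17 for complex IV, and the direction flipped to -0.20 for complex III, -0.14 for complex V and -0.07 for all members. Insulin transcripts took a median of 74.99% of TPM in 3TD and 62.2% in IF cells.

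Past a difference of 0.58, 41 of 99 members were higher in 3TD than in IF cells, where 29.6% of 12686 genes were, and 10 were lower, where 36.5% of genes were. With ins kept, 23 were higher and 18 lower, against 16.5 and 52.01% of genes, and the median of all genes was -0.63 in place of -0.12. In all 79 of 99 members were higher, with a median of 0.48 against -0.12 for all genes. By complex, 18 of 38 genes of complex I were higher in 3TD past this size, 8 of 16 of complex IV, 7 of 18 of complex V, 2 of 8 of complex III and 1 of 5 of complex II, and 3, 1, 1, 1 and 1 were lower in the same complexes. Among genes of at least 100 TPM 26 of 71 members were higher and 5 lower, against 11.9 and 20.5% of 1358 genes. With 1 pool per diet there is no replicate check, and differences of feeding and of the pool itself cannot be told apart.

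Named members differed between the diets to unlike degrees. NDUFB10 had 249 TPM in 3TD and 228 TPM in IF cells, NDUFB1 304 and 273 TPM, SDHB 198 and 192 TPM, and NDUFA4 638 and 633 TPM. COX7C had 1547 TPM in 3TD and 844 TPM in IF cells, cox6c 794 and 438 TPM, ndufa11 426 and 151.6 TPM, and UQCRQ 404 and 214 TPM. The ATP synthase subunit atp5md had 207 TPM in 3TD and 65.1 TPM in IF cells, the largest difference in that complex (1.66). In the other direction SDHC had 191 TPM in 3TD and 303 TPM in IF cells, SDHA 186 and 270 TPM, NDUFS1, the largest core subunit of complex I, 102.8 and 189.03 TPM, and ATP5F1A 532 and 799.7 TPM. ATP5F1B had 1220 TPM in 3TD and 1486 TPM in IF cells.

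Among the members of at least 10 TPM on average, the largest differences toward 3TD were SDHAF3 (44.4 TPM in 3TD and 10.3 TPM in IF cells), NDUFAF6, a factor for complex I (22.8 and 5.20 TPM), and COX6A1 (ENSDARG00000054588, 24.1 and 6.22 TPM). Toward IF they were NDUFAF7, uqcrc2a (13.8 TPM in 3TD and 35.3 TPM in IF cells) and NDUFS1. NDUFAF7 had 0 reads in 35 3TD cells, which allows a share of up to 8.57%, and 21 reads in 3 of 43 IF cells, so its 0 and 20.1 TPM rest on few reads. COX6A1 likewise had 79 reads in 4 of 35 3TD cells and 28 reads in 2 of 43 IF cells. Under diet the 3 called genes had 3TD values inside the range of the later pools for cox8b (196 TPM), SDHD (36.4 TPM) and COX6A1, and IF values inside it for cox8b (131.8 TPM) and SDHD (25.9 TPM) but below it for COX6A1.

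The diet difference varied with gene length. Across 94 members of at least 10 TPM, Spearman's rho between gene length and the difference of 3TD minus IF was -0.45, as a description over genes that share 2 pools and are not independent. The median difference was 0.60 for 54 members under 1000 bases (51 of them higher in 3TD), 0.41 for 32 of 1000 to 2000 bases and -0.32 for 8 of 2000 bases or more (2 of them higher). For all 7304 genes rho was -0.16, with medians of 0.26, -0.03 and -0.28. Over the later and juvenile pools length had little relation to the difference, with a rho of -0.08 over 97 members. In the plate pair of 13 and 1 mpf rho was 0.07 for members and -0.16 for all genes, and between 12 and 1 mpf -0.06 and -0.02. Between C1 and the other 3 mpf cells, rho was -0.40 over 95 members, with medians of 0.43, -0.56 and -2.26 by length, and 0.25 for all genes. Whether transcript length, RNA quality or feeding carries the diet difference was not tested.

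**Figure D4:**
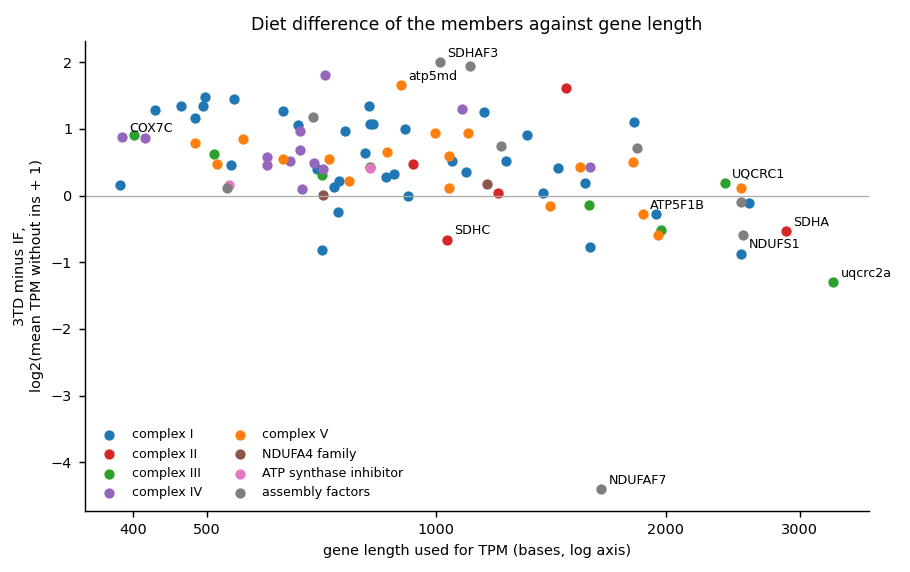
Difference of 3TD minus IF cells on the log2(mean TPM without ins + 1) scale (vertical axis) against gene length in bases (log axis) for the 94 members of at least 10 TPM, coloured by complex. Members under 1000 bases lie mostly above 0 (51 of 54), and those of 2000 bases or more mostly below it, uqcrc2a (-1.30) lowest among these. NDUFAF7, at -4.40, had no read in 3TD cells, so its place depends on the pseudocount of 1.

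Counted in reads, the chain took 1.73% of reads outside ins in 3TD cells (95% exact binomial interval 1.72 to 1.74%), against 1.34% in IF cells (1.33 to 1.34%). These intervals cover counting error only, not the spread between cells, fish or pools, and each diet was a single pool. Complex IV took 0.262% in 3TD and 0.158% in IF cells. At equal reads 3TD cells also had more genes detected, a median of 2002 genes, against 1696 in IF cells, and the part of this in the diet difference was not tested. Summed markers of other cell types were alike in alpha-cell genes, at 454 TPM in 3TD and 462 TPM in IF cells, while delta-cell genes had 16829 TPM in 3TD and 11580 TPM in IF cells.

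Seen cell by cell and without ins, the share of the chain overlapped between stages, and fewer of its genes were read in later cells. The median share per cell was 2.66 to 3.74% of TPM without ins in the later pools, against 3.09 and 3.24% in the juvenile pools. At 20000 reads outside ins per cell, a median of 54, 55.5 and 60 members were read in later cells (lowest, median and highest pool), against 69 in each juvenile pool. The 45 dpf cells had 66, the C1 cells 34, and the diet pools 52 in 3TD and 40 in IF. All later pools were below both juvenile pools, as they were for detected genes in general.

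**Figure D5:**
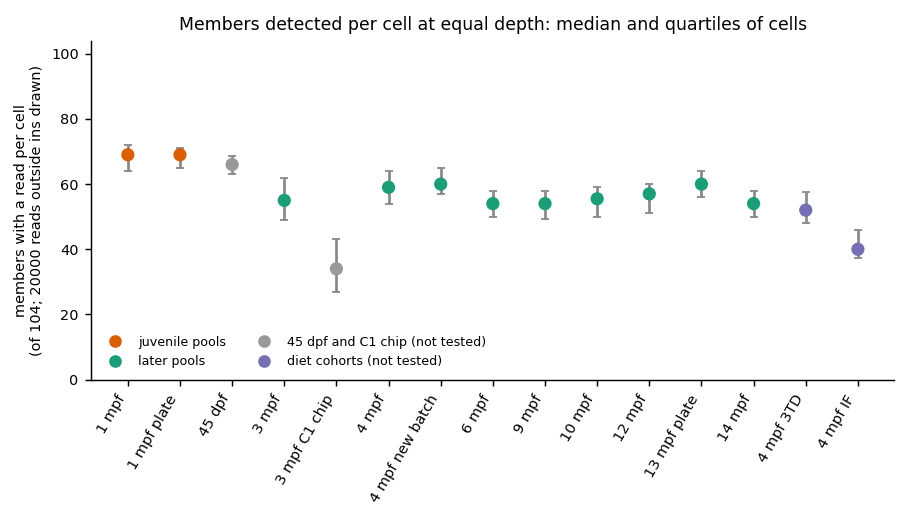
Number of members with a read per cell after drawing 20000 reads outside ins (vertical axis), by pool. Points are medians and bars span the quartiles of cells. The later pools stand at 54 to 60 and the juvenile pools at 69, and 3TD cells (52) lie above IF cells (40).

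The way cells are averaged changed the count of calls. When the level of a pool was taken as the mean over cells of log2(TPM without ins + 1), in place of the log2 of the mean, limma called 2 members higher and 37 lower, where 0.347% of genes (49) were called higher and 37.8% (5325) lower, with medians of -1.11 for members and -0.42 for all genes. With equal reads drawn per cell it called 1 higher and 21 lower, where 0.291% of genes (41) were higher and 21.5% (3026) lower, with medians of -0.85 and -0.21. The mean of log values gives weight to the cells in which a gene was not read, of which the later pools held more. The part of this in the counts of calls was not tested.

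Of the genes that feed or equip the chain, those in 7 further lists, 1 passed in limma. Of all 14102 genes tested 0.248% were called higher and 0.638% lower. None of 8 cytochrome c and electron carrier genes, 12 of coenzyme Q synthesis, 39 assembly factors outside the name rule, 20 of pyruvate dehydrogenase and the citric acid cycle, 15 of mitochondrial biogenesis or 10 of hypoxia was called by limma between later and juvenile pools. In these lists 2, 1, 0, 3, 1 and 3 genes had an unadjusted p under 0.05 in limma, against 1664 of the 14102 genes in all. Of 10 nucleotide, phosphate and porin carriers 1 was lower. This was VDAC2, a porin of the outer membrane, with 212, 306 and 376 TPM in the later pools, against 637 and 581 TPM in the juvenile pools (-1.08 ± 0.24, SE, adjusted p = 0.047 in limma). A single call over these lists is close to the share over all genes. Refits of VDAC2 without a juvenile pool, with the block or with ins kept are not given here. Of the citric acid cycle list 3 of 20 genes were higher in the later pools, where 44.1% of all genes were. The median difference of this list was -0.32, against -0.12 for all genes tested.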

How the data were processed

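Whole-transcriptome libraries of single beta-cells were analysed. The authors trimmed reads with Trim Galore, aligned them to GRCz10 with HISAT2 and counted them per gene with HTSeq, as the series' design text and the submitters' processing notes name them, and tool versions are not given in the sources used here. They deposited counts for the 637 training cells and TPM values for these and for 377 cells of 7 cohorts and 1 chip run. Low-quality cells had been removed by the authors, and 0 columns of per-sample values were left unused. Cells of the 45 dpf, C1 and new 4 mpf tables were tied to their groups by the title of the table.

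Gene lengths of 22948 genes were recovered from the training counts and TPM, and with these the reads of the cohort cells, of which 100% of values came out whole within 0.02. TPM was rescaled without ins and averaged over the cells of a pool. Later and juvenile pools were compared with limma on log2(mean TPM + 1), a pseudocount of 1, for genes with a mean of at least 1 TPM. Fold changes on this scale understate the change of low genes. Adult against adolescent pools and the age trend were tested with edgeR's quasi-likelihood test on summed training counts, with DESeq2 as the alternative. P-values were Benjamini-Hochberg adjusted over all genes tested, with a threshold of 0.05, and single pools were compared by a log2 difference of 0.58. R 4.3.3, limma 3.58.1, edgeR 4.0.16, DESeq2 1.42.0, Python 3.11.15, scipy 1.17.1 and matplotlib 3.10.9 were used, and the fits were tested on simulated data.

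The name rule was applied without regard to case, since many symbols in the tables are in capitals, and 26108 identifiers had a symbol. Reads of near-identical paralogs may be split uncertainly between them. The members, lists and rules were chosen with earlier results of these data known. Named are the 3 most abundant members of each group, members past a threshold, isoforms of cox4i, cox6a, cox7a, cox8 and atp5if, and the 3 largest and smallest diet differences at a mean of at least 10 TPM. Genes without overlap between stages, cox6b2, the other SDHD gene, atp5md, ATP5F1A and VDAC2 were singled out after their values were seen. Intervals and limits from a count of 0 (3 counts) cover counting error only. Alternatives changed the scaling, averaging, filters, pseudocount, tool and pools. Drawing 20000 reads outside ins per cell, with 9 cells under that number left out, and the block for date or plate were added after seeing the data. A gene among those without overlap between stages is not reported here.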

Additional observations from a re-analysis of the deposited data

Results flagged for a closer look

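Among 52 totals and named genes examined over the 9 later pools, 4 had a pool far from the rest, and chance alone flags about 1 in 20 groups. The total of complex II was 578 TPM in the new 4 mpf batch, against 774 to 917 TPM in the other later pools. Complex V summed to 14168 TPM on the 13 mpf plate, against 9032 to 11264 TPM in the others. The scarce ndufa4b had 5.84 TPM on the 13 mpf plate and at most 0.133 TPM in the other later pools (against 3.04 TPM on the 1 mpf plate and 3.58 TPM at 1 mpf), and NDUFS1 had 192 TPM at 14 mpf, against 103.1 to 140.3 TPM.

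Of 9 totals, 6 differed in opposite directions in the 2 pairs of an adult and a juvenile pool. On the plate the ratio of 13 over 1 mpf was 1.18 for complex I, 1.44 for complex III, 1.04 for complex IV, 1.39 for complex V and 1.19 for all members, while the ratio of 12 over 1 mpf was 0.976, 0.811, 0.820, 0.953 and 0.931. The NDUFA4 family went the other way, with 0.646 on the plate and 1.07 at 12 mpf. Complex II (0.976 on the plate and 0.991 at 12 mpf), the inhibitors (0.934 and 0.831) and the assembly factors (1.48 and 1.77) lay on the same side of 1 in both pairs. With 1 pool on each side these differences between pairs were not tested.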

How the results depend on the processing

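The 3 calls between later and juvenile pools became 39 with the mean over cells of log2 values, 26 with ins kept in TPM (which moves the median of all genes to -0.65), 22 with equal reads drawn per cell (added after seeing the data) and 0 in edgeR on the training counts alone, where the 1 mpf pool is the whole juvenile side. Leaving out each pool in turn gave 0 to 4 calls there, and 0 to 0 for the adult contrast and for the trend, where DESeq2 called 1. The share of all genes that DESeq2 called in the trend is not given here, so its 1 call is a value only. In settings other than leaving out a pool, SDHD passed in 10 and not in 2, and cox8b in 7 and not in 5. COX6A1, which met the filter only through the later pools, passed in 9 and not in 3, as values and not as support. NDUFB10, short of the threshold in the main fit, passed in 7 and not in 5. In refits that left out a pool, each of the 3 called genes passed 9 times and failed without either juvenile pool. These fits share most pools, so their tallies are not independent support. In edgeR on training counts, with 1 juvenile pool, the log2 folds of SDHD, COX6A1 and cox8b were 3.72, 4.55 and 2.74. NDUFB1 reversed to -0.61 (mean log2), -0.13 (ins kept) and -0.19 (equal reads), NDUFA1 to -0.36 (mean log2) and -0.27 (ins kept), and atp5meb to -0.0074 (ins kept). The cause of these reversals was not tested. As a value only, ins took a median of 65.3 to 77.8% of TPM in the later pools, against 56.6% on the 1 mpf plate and 54.6% at 1 mpf.

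For single pools, members past the fold (higher and lower) were, with ins kept, 5 and 70 at 12 against 1 mpf, 8 and 39 at 13 against 1 mpf, and 23 and 18 in 3TD against IF. With mean log2 they were 3 and 71 at 12 against 1 mpf, and 7 and 57 at 13 against 1 mpf. The share of all genes past the fold with mean log2 is not given here. In limma that setting called 37.8% of all genes lower between later and juvenile pools. The mean log2 counts for these pairs and for the diets are therefore values only. In 3TD against IF 3 were lower with mean log2, while the count of higher members stayed of similar size to the 41 of the main setting. With ins kept, the log2 ratio of later over juvenile totals was -0.74 in complex I, -0.79 in II, -1.04 in III, -0.88 in IV, -0.74 in V, -0.48 in the NDUFA4 family, -0.95 in the inhibitors, -0.24 in assembly factors and -0.81 in all members, against -0.10, -0.11, -0.29, -0.24, -0.03, 0.16, -0.18, 0.53 and -0.06. With the median of each gene over cells, summed over genes, it was -0.43 in I, -0.61 in II and -0.23 in all. A gene without a read in most cells of a pool then counts as 0. For 3TD over IF with ins kept it was 0.079 in I, -0.80 in II, -0.20 in III, 0.17 in IV, -0.14 in V, -0.44 in the NDUFA4 family, -0.11 in the inhibitors, 0.20 in assembly factors and -0.074 in all. With medians over cells it was 2.31 in I, 0.79 in III, 0.82 in IV and 0.66 in all.

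The numbers in the titles count the cells of a pool and pair nothing across pools. Date or plate was therefore taken as the replicate block (12 with 1 mpf, the 13 with the 1 mpf plate, the other pools together), which was added after seeing the data. It left 0 members called in limma, with the 3 genes at 3.35, 3.47 and 2.98. The block of the other pools holds no juvenile pool, so these values rest on the date pair and the plate pair alone. The alternative without mitochondrial genome genes was not run, since none was found by symbol. Low members rest on few cells, and the pools of 13 to 50 cells are the least certain.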
